A study of Homo sapiens with 4 samples.

Results

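The leukocyte receptor complex on chromosome 19 holds the LAIR and LILR genes, which encode immunoglobulin-like receptors of blood cells. Of 20028 protein-coding genes, 10 were taken as members: LAIR1, LAIR2, LILRB1, LILRB2, LILRB3, LILRB4, LILRA1, LILRA2, LILRA5 and LILRA6. The family was selected on the measured height of a peak at LAIR1, among the highest of both peak lists, so the LAIR1 values are a description only. A member's locus is its gene body with 10 kb either side, on GRCh38. The 10 loci formed 7 separate intervals of 283 kb in all, and held 17 of the 55852 peaks of one list and 34 of the 86207 peaks of the other, each peak counted once.

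The peaks are of H3K27ac, an acetylation of histone H3 that marks promoters and enhancers in use, measured by ChIP-seq. MOLM13, the cell line used, comes from an acute myeloid leukaemia with an MLL-AF9 fusion. Cells were exposed for 16 hours to 500 nM OTX015, which blocks the bromodomains of BET proteins, or to the combination of 500 nM OTX015 with 500 nM SNDX-50469, which keeps Menin from binding MLL proteins. Each treatment had 1 ChIP library and 1 peak list, and both groups carried OTX015, so the pair addresses what the Menin inhibitor adds. Untreated cells and cells with SNDX-50469 alone were not analysed here. Without replicates no difference could be tested, and all values are those of 2 libraries in 1 cell line.

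The 2 lists differed in background, and read depth itself is not given in them. From the values of the weakest peaks, background was worked out as 0.764 fragments per base with OTX015 and 1.47 with the combination. The weakest peaks therefore stood 6.54 times over background with OTX015 but only 4.76 times with the combination. A gain made only of weak combination peaks cannot be told apart from this difference in level. A deeper combination library is a possible source of it that was not tested. Among markers of a myeloid leukaemia with an MLL fusion, 8 of 8 loci had peaks with OTX015 and 7 of 8 with the combination, the exception being MEIS1. Of the 8, 4 had more and 4 less cover with the combination, and their sums were 50.1 and 45.2 kb. MEIS1 alone went from 9.34 to 0 kb, a larger fall than that of the sum. SPI1, the gene of the myeloid factor PU.1, had 10.3 and 9.52 kb under peaks, FLT3 7.90 and 12.6, and HOXA9 6.12 and 2.33. Loci of NK and T cell markers (5 genes) summed to 0.815 and 0.819 kb. Of B cell markers, CD79A had 2.72 and 4.99 kb, PAX5 0 and 0.855 and MS4A1 0 and 0.108. Of red cell and platelet markers, KLF1 had 0.499 and 0.551 kb and GP9 0 and 0.144. CD3E, KLRF1, HBB and ITGA2B had no peak in either list.

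The family works through paired receptors. LAIR1 and the LILRB receptors carry ITIMs, tyrosine motifs in the cytoplasmic tail that recruit phosphatases such as SHP-1 (PTPN6) and restrain activation. The LILRA receptors lack ITIMs and pair with the Fc receptor gamma chain (FCER1G), an ITAM adaptor that calls on SYK. LAIR1 binds collagen, LAIR2 is a secreted collagen-binding decoy, and several LILRs bind HLA class I. LILRB4 is a marker of monocytic leukaemia cells, and LILRB3 and LILRA6 have nearly identical extracellular domains. How reads that match several such copies were aligned is not given in the sources used here, so values at the LILR genes are uncertain to that extent.

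Of the 10 members, 8 had at least 1 start in the promoter sequences of RefSeq (GRCh38.p14), with 15 starts in all. LAIR2 and LILRA6 had none. Upstream windows of 250 bases were searched on both strands. The ETS core AGGAAG, which PU.1 recognises, was in the windows of 9 of these 15 starts, against 28.7% of all 35116 promoters in the table. The 9 starts belong to 7 of the 8 members, for which no share per gene was worked out. The windows of the LILRA2 starts overlap and hold the same site, so it is counted at each. The letters CTTCNTGTG were chosen after the sequences had been read and overlap the ETS core where N is C. They were found at 6 of the 15 starts, against 1.05% of all promoters. These starts belong to 5 members, all LILR genes, which share ancestry, so the starts are not independent. The sequences of these elements are shown because they are a stretch that LILR promoters with and without peaks have in common. Capitals mark the element, and each line runs 5′ to 3′ in the gene's direction.
LILRA2, chr19:54573730-54573758, plus strand: ggcagttgcaCTTCCTGTGtggttgcaca
LILRA1, chr19:54594072-54594100, plus strand: ggtagttctgCTTCCTGTGtggctgcaga
LILRB4, chr19:54662884-54662912, plus strand: ggcagtttccCTTCCTGTGggctgctgat
LILRB3, chr19:54223099-54223127, minus strand: ggcagttcctCTTCCTGTGggctgaggat
LILRB2, chr19:54280641-54280669, minus strand: ggcagttccgCTTCTTGTGtggctgcaga
The LAIR1 window is shown beside them because its promoter lay under a peak in both lists and holds an ETS core (capitals) without the longer element.
LAIR1, chr19:54364934-54364959, minus strand: acagaaagctCTTCCTcttgtgtgag

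Of these 6 windows, those of LILRA2 and LAIR1 lay within peaks of both lists. The LILRB4 window fell just past the end of its combination peak, and the LILRA1, LILRB3 and LILRB2 windows met no peak. Nearly the same letters thus stood in promoters with the mark and without it. TGTGGT, the RUNX core, was found at 3 of the 15 starts, of LAIR1 and LILRA2 (whose starts hold the same site), and in 11% of all promoters. TTGCNNAA, a CEBP-type site, was found at 1 start, that of LILRA5, against 9.05% of all promoters, and TATAAA at none, against 10.7%. Over the 250 bases, the 70 LILR pairs of different genes ranged in identity from 42.6% to 94.4% with a median of 49.8%, and the 26 pairs of LAIR1 with an LILR start from 44.9% to 54.6%. The closest pair was LILRA1 (start 54593632) and LILRB1 (start 54630484), and neither start had a peak within 2 kb in either list.

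LAIR1 carried most of the mark in the family (chr19:54351384-54376088, minus strand). Its locus had 10.3 kb under 8 peaks with OTX015 and 12.3 kb under 9 peaks with the combination, which is 23.01% and 27.5% of the locus. The other 9 members together had 6.002 kb under 9 peaks and 10.0 kb under 25 peaks. All 8 OTX015 peaks of LAIR1 met a combination peak, and 9.13 kb lay under both lists, 88.7% of the OTX015 cover and 74.2% of the combination cover. The map of the 10 loci shows this concentration.

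**Figure D1:**
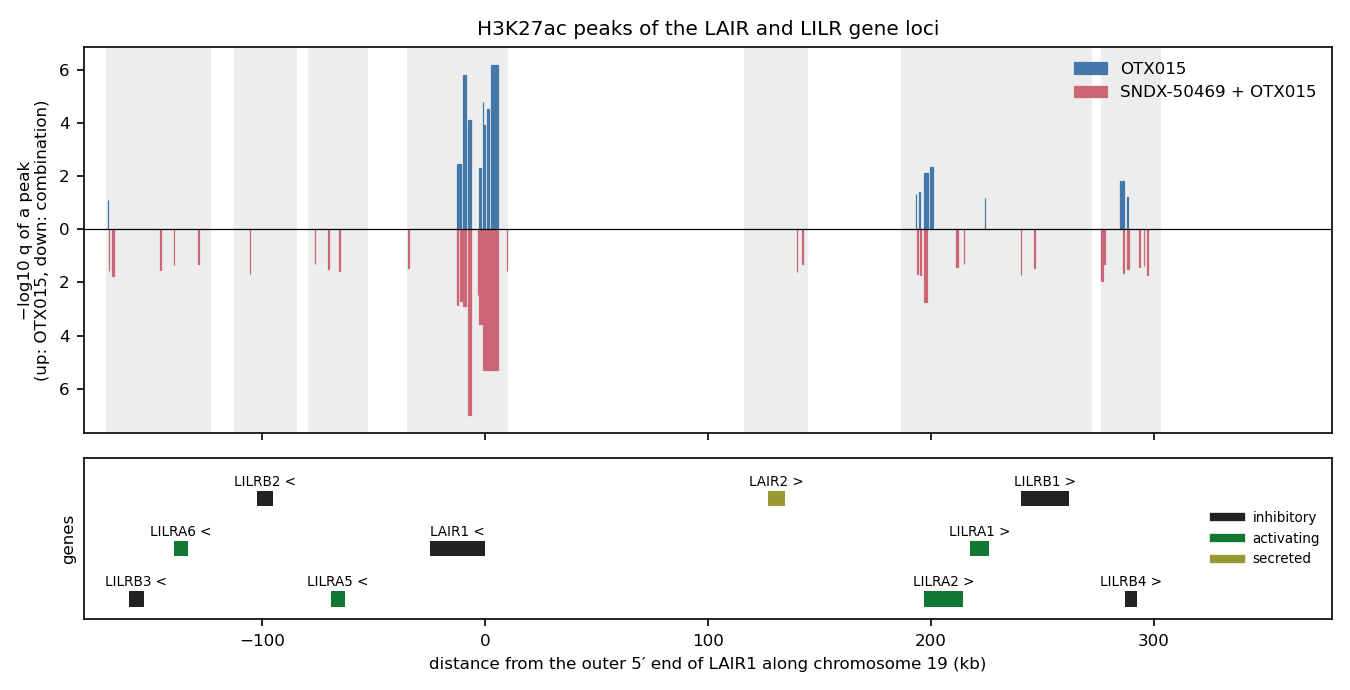
Peaks of the 10 member loci by distance from the outer 5′ end of LAIR1 (x axis, kb), with the −log10 q of each peak upward for OTX015 and downward for the combination (1 library each, no error). Grey bands are the loci, and the lower panel places the genes by receptor kind, with the arrowhead giving the direction of transcription. Peaks past a −log10 q of 3 are found only at LAIR1 in both lists.

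With OTX015 the LAIR1 peaks formed 2 groups, 3 peaks farther inside the gene and 5 around its outer 5′ end. Of the 5, those at 54373502 and 54375061 also lay wholly within the gene body. The strongest was chr19:54378604-54381651, 3048 bp wide, 2.52 kb upstream of that end, with a fold of 6.49 and a −log10 q of 6.19. It ranked 60 among all OTX015 peaks and 7 on chromosome 19. The next, chr19:54366171-54367389, lay in the gene body, with a fold of 6.28 and a −log10 q of 5.81. The other 6 had −log10 q values from 2.29 to 4.79.

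With the combination the strongest peak was another one, chr19:54368415-54369681, 1267 bp wide and within the gene body. Its fold was 6.19 and its −log10 q 7.00, and it ranked 29 among all combination peaks and 3 on chromosome 19. The OTX015 peak at the same place, chr19:54368450-54369829, had a −log10 q of 4.10 and ranked 240. At the 5′ end a single combination peak, chr19:54375106-54381673, 6568 bp wide with a −log10 q of 5.28, met 4 separate OTX015 peaks. The order of the LAIR1 peaks as called thus differed between the 2 libraries, with the upstream peak first in one and the intragenic peak first in the other. The intervals were unlike, since the upstream OTX015 peak of 3048 bp lay within the joined combination peak of 6568 bp. Fold is a mean over a peak, and whether the joining changed the order was not tested.

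Because the lists differ in background, peaks were also set side by side as the mean pileup over a peak divided by the background of its list. At LAIR1, 3 pairs of peaks met one to one, with neither peak meeting a further peak of the other list. The peak at 54366171 stood 13.2 times over background with OTX015 and 6.61 times with the combination, a ratio of 0.501. The peak at 54368450 stood 11.1 and 9.72 times over background, a ratio of 0.874. The peak at 54373502 had 8.71 and 7.17, a ratio of 0.823. The first and second of these are neighbours inside the gene, and the one that stood higher with OTX015 stood lower with the combination.

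The same ratio over other peaks is given beside these. The lists differ in entry level, 6.54 and 4.76 times background, and a set taken for a high OTX015 value favours low ratios by its choice. Over all 14387 one-to-one pairs the median was 0.737, with quartiles of 0.685 and 0.788, and 51 pairs were higher with the combination. Among the 281 pairs of at least 10 times background with OTX015 the median was 0.544, with quartiles of 0.499 and 0.618. In that set the peak at 54368450 ranked 5 from the top and the peak at 54366171 ranked 210. Of the 40 such pairs on chromosome 19 they ranked 2 and 30. LAIR1 was selected on its peak height, and 54368450 is the place of its strongest combination peak, so these ranks are a description only. The remaining pairs of members, at LILRA2 and LILRB4, had ratios from 0.659 to 0.759, and none of the 7 pairs of the family was above 1.

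**Figure D2:**
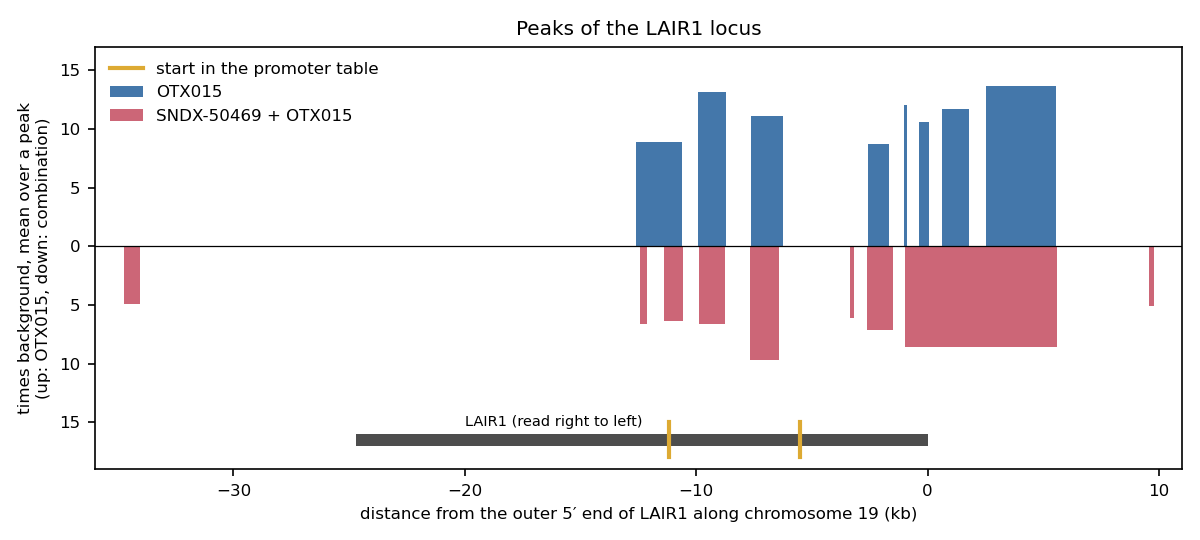
Each LAIR1 peak by distance from the outer 5′ end of LAIR1 (x axis, kb), with height as the mean of the peak in times background, upward for OTX015 and downward for the combination (1 library each, no error). The grey bar is the gene and yellow ticks are the starts in the promoter table. Each combination peak that meets OTX015 peaks is lower than they are, 3 combination peaks stand where OTX015 has none, the 4 OTX015 peaks at the outer 5′ end meet 1 wide combination peak, and of the one-to-one pairs that of 11.1 and 9.72 is the most alike.

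The inner and outer table starts of LAIR1 differed. The 300 bases around the inner start, 54364931, were wholly covered in both lists, whereas those around 54370558 were bare in both, with the nearest peak 0.729 and 0.877 kb away. Within 1 kb of the inner start 1.54 kb lay under OTX015 peaks and 0.869 kb under combination peaks. The 10 kb upstream of the gene had 4.29 and 5.79 kb, and all of the OTX015 cover there was shared. The gene body had 5.99 and 5.83 kb. The extra combination cover of the LAIR1 locus was thus in the flanks, with 0.674 kb in the 3′ flank, where OTX015 had none, and the rest upstream. The 3′ flank peak had a −log10 q of 1.45 and also lay within 10 kb of the neighbour LILRA4. Upstream, the wide combination peak also covered the gaps between separate OTX015 peaks.

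The limit of 10 kb cut off further cover on the upstream side. Just inside it the combination list had a peak of 207 bp with a −log10 q of 1.57. Just outside, the OTX015 list had a peak of 335 bp 2.46 kb beyond the limit, with a −log10 q of 3.34, higher than any member peak outside LAIR1, and the combination list one of 1177 bp 1.96 kb beyond it, with 1.97. When peaks up to 5 kb apart were joined, the LAIR1 domain spanned 18.1 kb with 10.3 kb covered for OTX015 and 29.0 kb with 13.3 kb covered for the combination. By span these ranked 25 of 1734 and 30 of 1915 domains on chromosome 19. The order of the spans depended on the gap allowed. With 1 kb the domain holding each list's strongest LAIR1 peak, at different places, had spans of 8.15 kb (OTX015) and 1.27 kb (combination), and with 12.5 kb the spans were 35.7 and 29.0 kb.

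LILRA2, an activating receptor of monocytes and neutrophils (chr19:54572988-54590287, plus strand), was the second member by OTX015 cover. It had 3.98 kb under 4 peaks with OTX015 and 3.28 kb under 5 peaks with the combination, the only member with less in the combination. Only 1.54 kb lay under both, 38.7% and 46.9% of the 2 covers. Both its table starts, 54573790 and 54573831, lay wholly within the peak chr19:54572946-54574900 (OTX015, −log10 q 2.11) and the peak chr19:54573073-54574517 (combination, 2.72). A second OTX015 peak inside the gene, chr19:54575844-54576895, with a −log10 q of 2.35, met no combination peak. The pair at the starts stood 8.36 and 6.35 times over background.

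The 3 remaining activating receptors had little of the mark. LILRA1 had 1 OTX015 peak of 189 bp inside the gene and 2 combination peaks upstream, 0.963 kb in all, both also within the LILRA2 locus. LILRA5 and LILRA6 had no OTX015 peak and 0.496 and 1.03 kb under 3 combination peaks each. None of these peaks passed a −log10 q of 1.6. The 4 activating loci together had 4.17 and 4.81 kb, with shared peaks counted once.

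Among the inhibitory receptors LILRB4 came after LAIR1 (chr19:54662985-54668718, plus strand). It had 1.68 kb under 3 peaks with OTX015 and 3.30 kb under 7 peaks with the combination, with 0.789 kb under both. Its highest peaks had −log10 q values of 1.82 and 1.95. The pair next to the start stood 7.91 and 5.21 times over background and ended 0.425 kb before the start with OTX015 and 0.151 kb before it with the combination. The 5 combination peaks on either side of the gene that met no OTX015 peak and the unmatched OTX015 peak at 54660929 were all below a −log10 q of 2.

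LILRB1 and LILRB2, receptors for HLA class I, and LILRB3 were nearly bare. LILRB1 had 2 combination peaks of 0.560 kb in the gene body, LILRB2 had 1 of 0.205 kb, and neither had an OTX015 peak. LILRB3 had 1 OTX015 peak of 147 bp and 3 combination peaks of 1.20 kb, and these did not meet. The OTX015 peak and 1 of the combination peaks lay in the gene body of the neighbour RPS9, and another combination peak was shared with the LILRA6 locus. The 4 inhibitory LILRB loci together had 1.83 and 5.27 kb, and no peak there reached a −log10 q of 2. LAIR2, the secreted member, had no OTX015 peak and 0.355 kb under 2 combination peaks beyond its 3′ end. In the bar plot of cover LILRB1, LILRB2, LILRB3 and LAIR2 lie below LAIR1 and LILRA2 in both lists.

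**Figure D3:**
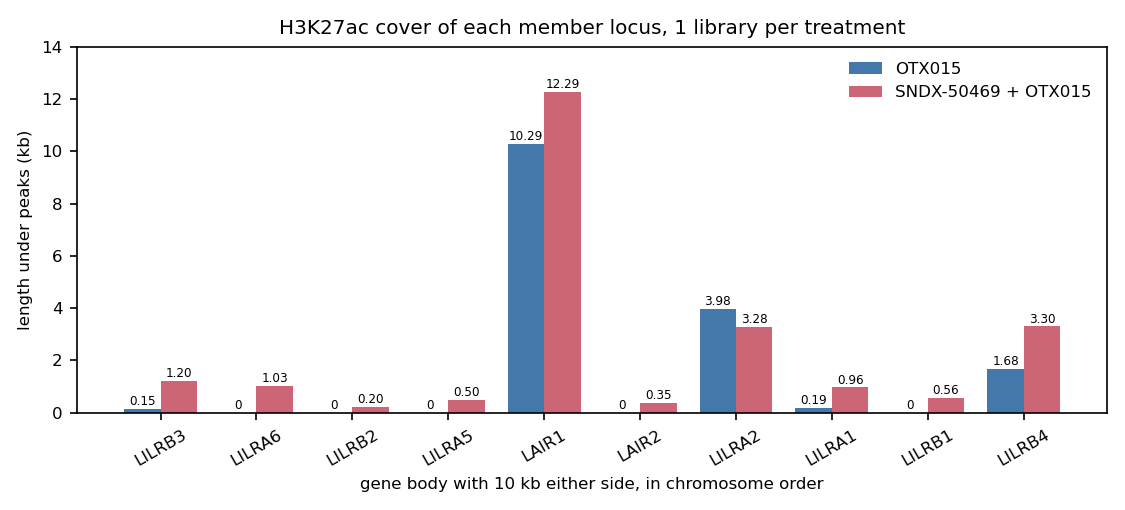
Length under H3K27ac peaks (y axis, kb) in the locus of each member, in chromosome order, for OTX015 (blue) and the combination (red), 1 library each and no error. LAIR1 is highest in both lists (10.29 and 12.29 kb), LILRA2 is the only member with less in the combination (3.98 and 3.28 kb), and 5 members have no OTX015 peak.

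Counted as a family, 5 of 10 members had cover with OTX015 (LILRB3 only within RPS9), against 50.6% of all protein-coding genes, and 10 of 10 with the combination, against 53.4%. In both lists 5 members had cover, against 38.7% of all genes. On chromosome 19, which is dense in genes, the shares were 76.4% and 76.8%. More cover with the combination was found for 9 of the 10 members, against 59.3% of the 13087 genes covered in either list and 67.0% on chromosome 19, and less for 1, against 40.7%. At least 2-fold more was found for 7, against 41.5% and 38.5% on chromosome 19, and at least 2-fold less for 0, against 27.6% and 17.9%. A locus covered in only 1 list counts as past 2-fold, as LAIR2, LILRB1, LILRB2, LILRA5 and LILRA6 did with the combination only. The 7 were all members other than LAIR1, LILRA2 and LILRB4, each with 1.20 kb or less in the combination list. The median difference, combination minus OTX015, was 0.667 kb over the members, 0.134 kb over all covered genes and 0.480 kb over those of chromosome 19.

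The counts of the family turned with the level at which peaks were taken. Kept to peaks of a −log10 q of at least 2, the family had 13.3 kb under 10 peaks with OTX015 and 12.9 kb under 8 with the combination, all at LAIR1 and LILRA2. Of all genes 12.5% and 17.2% had such a peak in their locus. A −log10 q of at least 5 was reached by 1 member, LAIR1, in both lists, against 0.684% and 0.285% of all genes. LAIR1 was selected on its peak height, so this count and its cover at the next cut are descriptions only. When combination peaks had to pass the enrichment of the weakest OTX015 peak, 1160 peaks remained genome-wide. LAIR1 held 5 of them and kept 10.4 of its 12.3 kb, and the other 9 members kept 0.

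A peak within 1 kb of the outer 5′ end was found for 3 members with OTX015 (LAIR1, LILRA2 and LILRB4), against 14.9% of all genes and 24.7% on chromosome 19. With the combination it was found for 4, the addition being LILRB1, against 15.3% and 30.3%. The LILRB1 peak, chr19:54616511-54616714, was 204 bp wide with a −log10 q of 1.70.

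Of the 17 OTX015 peaks of the family 12 met a combination peak (70.6%), and of the 34 combination peaks 10 met an OTX015 peak (29.4%). Over chromosome 19 the shares were 29.3% and 20.2%. LAIR1 accounted for 8 of the 12 and 6 of the 10. Outside LAIR1, 4 of 9 OTX015 peaks and 4 of 25 combination peaks met one of the other list, all at LILRA2 and LILRB4. Over all member loci, peaks that met had a median −log10 q of 3.18 against 1.31 for those that did not with OTX015. With the combination the medians were 2.78 and 1.53. Most peaks that met were at LAIR1, which was selected on its peak height, so these medians are a description only. In the other 9 loci they were closer, 1.61 against 1.31 with OTX015 and 1.68 against 1.51 with the combination.

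The surroundings of the family were less covered than the family. In the 10 Mb around it, of which 9.17 Mb lie before the chromosome end, 1.91% was under OTX015 peaks and 2.82% under combination peaks, against 5.75% and 7.89% of the member loci. Without LAIR1 the member loci were at 2.52% and 4.21%, much nearer the surroundings and chromosome 19 as a whole (2.64% and 3.51%). Cover with the combination was 1.37 times that with OTX015 in the member loci, 1.48 times in the 10 Mb and 1.33 times on chromosome 19. The 100 kb window with the LAIR1 gene had 11.01 and 15.9 kb, ranks 4 and 3 of the 91 windows of the 10 Mb, whose medians were 0.868 and 0.449 kb. Genes of the 10 Mb numbered 322, and LAIR1 ranked 4 and 2 among them by cover.

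**Figure D4:**
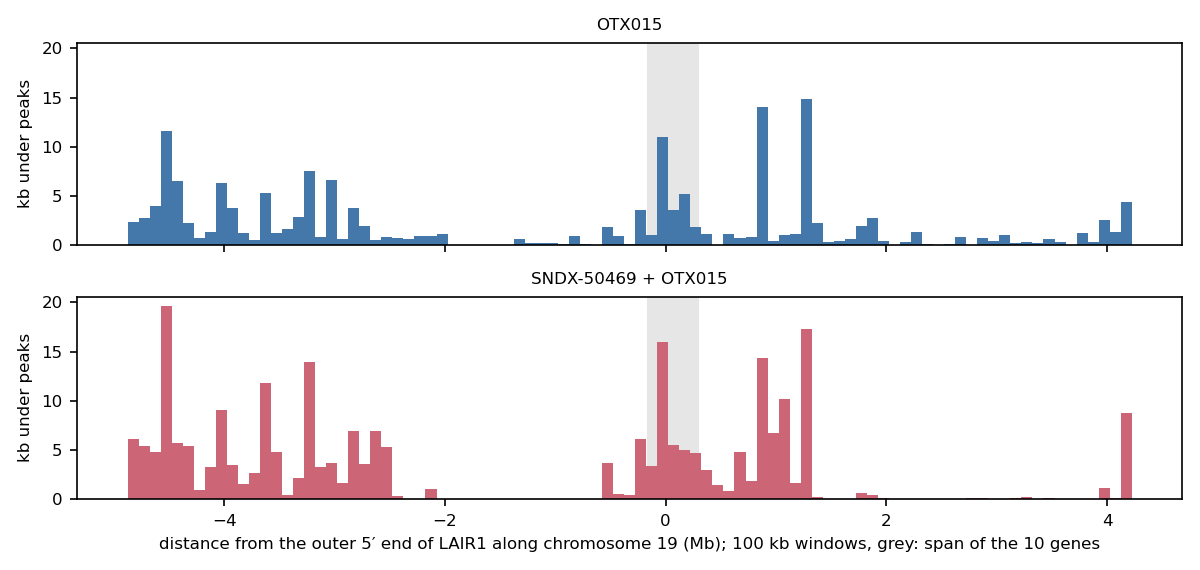
Length under H3K27ac peaks (y axis, kb) in 100 kb windows across the 10 Mb around the family, by distance from the outer 5′ end of LAIR1 (x axis, Mb), for OTX015 (upper) and the combination (lower), 1 library each and no error. The grey band is the span of the 10 genes. The LAIR1 window (11.01 and 15.9 kb) stands among the highest in both, and long stretches have almost no cover.

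Of the 5 strongest peaks of the 10 Mb, 4 were at LAIR1 with OTX015, after a peak at EPN1, an endocytic adaptor gene, with a fold of 7.58. With the combination the first 3 were at LAIR1, followed by one 15.8 kb from IZUMO2 and one 0.902 kb from NR1H2, which encodes the sterol receptor LXR-beta. The EPN1 peak, chr19:55675348-55682680, had a −log10 q of 8.35 with OTX015, and its combination counterpart, chr19:55675400-55681695, had 2.98. The genes most like LAIR1 by the highest −log10 q in both lists, out of 7743 with peaks in both, were RAB3D and TSPAN16, which share 1 peak (6.92 and 6.63), and PRAG1 (6.81 and 7.71).

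Between the members and within 100 kb of them, 16 other protein-coding genes had cover. The neighbours on the centromeric side had moderate cover in both lists: the splicing factor gene PRPF31 with 1.84 and 2.60 kb, CNOT3 with 2.098 and 4.40, LENG1 with 0.553 and 2.63, TMC4 with 0.748 and 2.01, MBOAT7 with 0.888 and 0.779, TSEN34 with 0.556 and 0.833, and the ribosomal protein gene RPS9 with 1.26 and 2.25. Between LAIR1 and LAIR2, LENG8 had 3.14 and 3.44 kb, LENG9 2.12 and 2.22, and CDC42EP5 2.12 and 1.71. TTYH1 and LOC124904770 had no OTX015 peak, and combination cover of 2.09 and 1.64 kb. The receptor genes LILRB5 (0.122 and 0.321 kb), KIR3DL3 (0.130 and 0.337) and KIR2DL3 (0 and 0.052) were as bare as most members, and LILRA4, next to LAIR1, had 0 and 2.28 kb. The LILRA4 cover includes the combination peak in the 3′ flank of LAIR1.

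Genes that work with the family were covered unevenly. Of 10 genes of ITIM and ITAM signalling, 6 had more and 4 less cover with the combination, against 59.3% with more and 40.7% with less among all covered genes. The median difference was 0.299 kb, against 0.134 kb over all covered genes. LYN, a SRC-family kinase that phosphorylates ITIMs, had 39.97 and 78.9 kb, CSK, which restrains such kinases, 16.4 and 12.3, and PTPN6 4.06 and 0.919. The list summed to 87.7 and 122 kb, and the LYN gain of 39.0 kb was larger than the gain of that sum. FCER1G, the partner of the LILRA receptors, had 0 and 0.468 kb, and the ITAM adaptor TYROBP had 7.53 and 7.65.

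Of 11 ligand genes 9 were covered in either list, 6 with more and 3 with less, near the 59.3% and 40.7% of all covered genes. The median difference over the 9 was 0.156 kb. B2M, the light chain of HLA class I, had 1.79 and 3.47 kb, APOE 0 and 1.31, and HLA-F 1.55 and 0.439. HLA-C and HLA-G had no peak in either list.

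Of 12 other inhibitory receptors of myeloid cells 10 were covered, 7 with more and 3 with less, against 59.3% and 40.7% of all covered genes, with a median difference over the 10 of 0.443 kb. SIRPA, the receptor for CD47, had 8.51 and 22.6 kb, SIGLEC9 6.34 and 12.4, and CD33 0.146 and 2.51. Of 15 further receptors of the complex 13 were covered, 11 with more and 2 with less, against 67.0% and 33.0% of the covered genes of chromosome 19. The median difference over the 13 was 0.207 kb, against 0.480 kb there. LILRA4 was highest there, FCAR had 0 and 1.45 kb, and GP6 0.698 and 1.86. At the enrichment of the weakest OTX015 peak the combination cover of the other inhibitory receptors fell from 48.9 to 0.587 kb. That of these 15 receptors fell from 9.41 to 0. LAIR1 was selected on its peak height, so the cover it kept at this level is no contrast to these lists.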

How the data were processed

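H3K27ac was measured by ChIP-seq (ChIPmentation) in MOLM13 cells, with 1 library per treatment. Per the submitters' processing notes, bcl2fastq 2.17, Trimmomatic 0.33, Bowtie 1.1.2, MACS2 2.1.0 and deepTools were used with GRCh38. Their settings, the use of the input and the treatment of reads that match several places are not given in the sources used here. The sample titles write H2K27Ac and the antibody label H3K27Ac, which was followed.

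The authors deposited 1 broad peak list per library. Each deposited peak has a score, a fold (the ratio of pileup to background, averaged over the peak), a −log10 p and a −log10 q, all used as deposited. The deposited score was the whole-number part of 10 times the −log10 q for 55849 of 55852 and 86206 of 86207 peaks. The lists hold no read numbers, so each background was solved from the fold and −log10 p of the weakest peaks taking pileups as Poisson and adding a pseudocount of 1 to both.

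Cover is the length of a locus under at least 1 peak. Gene positions and promoter sequences came from RefSeq (GRCh38.p14), and strands of genes without a promoter entry from GENCODE v44 by symbol and chromosome. The reference annotation given was of GRCh37, so peaks were not placed in exons or introns. 9 KIR and LILR records with positions on alternate contigs were left out. Overlap needed 1 bp.

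The members and lists were chosen with earlier results of these data known. Genes named are all members, covered neighbours within 100 kb, the genes nearest the 5 strongest peaks of the 10 Mb, the 3 members of each partner list with the largest difference, and the 3 genes closest to LAIR1. FCER1G, TYROBP, HLA-C, HLA-G and the markers were named after their values were seen. Some marker genes of the lists are not reported here. Alternatives were peaks of a −log10 q of at least 2, equal peak numbers, merging within 1 kb, other flanks, overlaps and windows, and a common enrichment over background, and leaving out LAIR1 was added after seeing the data. The cover and background steps were tested on simulated data. Software was pandas 2.3.3, numpy 2.4.6 and matplotlib 3.10.9 under Python 3.11.15, with scipy 1.17.1.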

Additional observations from a re-analysis of the deposited data

How the results depend on the processing

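Values are ratios of combination to OTX015. The cover of the members (1.37) turned to 0.967 with peaks of a −log10 q of at least 2, 0.977 without flanks and 0.639 at a common enrichment over background, and was 1.67 without LAIR1. Their peak numbers (2) turned to 0.800 and 0.294 at the first and last of these, and were 3.11 with peaks merged and 1.30 without flanks. Inhibitory loci (1.45) turned to 0.859 at the common enrichment. Activating loci (1.15) turned to 0.481 with the stricter peaks, 0.736 with equal peak numbers, 0.788 merged, 0 at the common enrichment and 0.759 without flanks. Single differences that turned were those of LAIR1 without flanks (-0.165 kb), LILRA1 with equal numbers, at the common enrichment and without flanks (-0.189 kb each) and with 50 kb flanks (-0.152 kb), and LILRB3 (-0.147 kb) and LILRB4 (-1.68 kb) at the common enrichment. With an overlap of at least 50% of both peaks required, 35.3% of OTX015 and 17.6% of combination peaks were shared. Ligands went from 1.27 to 2.47 (stricter), 0.938 (equal) and 0.205 (common), ITIM and ITAM signalling from 1.40 to 0.139 (common), other inhibitory receptors from 2.003 to 0.0240 (common), and further receptors of the complex from 3.86 to 2.49 (equal) and 0 (common). The share of covered genes with more cover fell from 59.3% to 42.1% with equal peak numbers and 0.848% at the common enrichment. The last 2 settings remove combination peaks only, so their ratios can only fall. The cause of the other turns was not tested. The LAIR1 span changed order with the gap allowed, 1, 5 or 12.5 kb. Promoter peaks were tried only with windows of 500 bp and 2 kb, and the surrounding 10 Mb only against 2 Mb and the rest of chromosome 19. Both kept their direction there. The settings on peaks that turned other results were not tried on them.
No paired analysis was possible because each treatment had 1 library. The difference in background limits the weak peaks most, since an enrichment between 4.76 and 6.54 times background could enter only the combination list.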
